A study of Mus musculus with 5 samples.

Results

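The homeobox genes Tlx1 and Lbx1 lie next to each other on mouse chromosome 19, and peaks of ubiquitinated histone H2A (H2AK119Ub, named for the lysine that carries the ubiquitin) were described here over mm9 chr19:45200000-45370000. The members are the peaks of 4 deposited lists that overlap this 170 kb window by at least 1 bp. There were 11 of them among 5132 peaks in all, 3 in the non-transduced list, 3 in the HOXA9 list, 3 in the PML-RARa list and 2 in the MLL-AF9 list. The window was chosen by deposited scores, since it holds the top-scoring peak of the non-transduced list, so its scores and coverage are given as a description, without a test. The locus definition places Tlx1 near 45.23 Mb and Lbx1 near 45.31 Mb, and no other gene position was used.

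Chromatin immunoprecipitation with sequencing (ChIP-seq) was done on lineage-negative bone marrow progenitors of C57BL/6 mice. All groups carried the genotype R26CreERT2;Ring1a-/-;Ring1bf/f;Cdkn2a-/-, that is, deletions of Ring1a and of the tumour suppressor locus Cdkn2a, floxed Ring1b alleles and an inducible Cre recombinase at Rosa26. The labels do not say whether Cre had been induced. One group was not transduced, and 3 groups were, with HOXA9, itself a homeobox gene, with PML-RARa, the fusion oncogene of acute promyelocytic leukaemia, or with MLL-AF9, a fusion oncogene of acute myeloid leukaemia. Each group had 1 library, so the values below compare libraries and not conditions, and no test between groups was possible. The labels describe no control transduced with an empty vector, so effects of transduction and of an oncogene cannot be told apart. How much of the genome each list held differed widely: 620 peaks over 13.4 Mb in HOXA9, 1332 over 31.4 Mb in the non-transduced list, 1408 over 27.0 Mb in MLL-AF9 and 1772 over 35.7 Mb in PML-RARa. Sequencing depth is unknown.

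H2AK119Ub is written by the ubiquitin ligases RING1A and RING1B, which form the catalytic part of PRC1, a Polycomb repressive complex. The mark is known for broad domains over silent genes of developmental transcription factors, homeobox genes prominent among them. Tlx1, also called Hox11, is needed for formation of the spleen and is an oncogene of T-cell acute lymphoblastic leukaemia when activated by translocation. Lbx1 specifies migrating limb muscle precursors and dorsal interneurons of the spinal cord. In the RefSeq gene table of assembly GRCm38.p6, used here only for gene order, Kazald1 is the protein-coding gene before Tlx1, preceded by Sfxn3 and Pdzd7. No gene starts between Tlx1 and Lbx1 in that table, and Btrc, which encodes an F-box subunit of a ubiquitin ligase, follows Lbx1, with Poll and Dpcd beyond it.

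The given positions of Tlx1 and of Lbx1 each lay inside a peak of all 4 libraries. Only the Tlx1 promoter is shown, because the promoter set used here had no entry for Lbx1. The sequence is the 250 bases before the annotated start, from RefSeq on the plus strand of GRCm38.p6, a later build than mm9, so it carries no mm9 position here. Capitals mark each CG dinucleotide, the site of DNA methylation, whose density defines CpG islands.
Tlx1: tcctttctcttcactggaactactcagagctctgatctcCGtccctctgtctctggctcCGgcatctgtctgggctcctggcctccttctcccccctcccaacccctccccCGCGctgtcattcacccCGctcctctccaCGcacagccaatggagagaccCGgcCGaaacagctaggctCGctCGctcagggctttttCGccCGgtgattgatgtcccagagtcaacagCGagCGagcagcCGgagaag
It holds 15 CG dinucleotides, 11 of them in the 125 bases nearest the start, at a GC content of 62.0% and an observed-to-expected CG ratio of 0.676. CG reads the same on both strands. Of the 32851 promoter windows of this length in the table, 92.1% held at least 1 CG and 27.3% held 15 or more, and the median was 6. The Tlx1 promoter thus held more CG than the median promoter.

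The members fell into 3 domains, where a domain is a stretch of overlapping peaks merged over the 4 lists. The first, called the Tlx1 domain, ran from 45198669 to 45255576 (56.9 kb) and held the given position of Tlx1. The second, the Lbx1 domain, ran from 45280500 to 45360024 (79.5 kb) and held that of Lbx1. The third, called the distal domain, ran from 45361035 to 45383201 (22.2 kb) and lay mostly beyond the right edge of the window. The Tlx1 and Lbx1 domains had a peak in each library and the distal domain in all but MLL-AF9. Over the whole series, 309 of 2575 merged regions (12.0%, exact 95% binomial interval 10.8 to 13.3) had a peak in all 4 lists. Windows of the same length were centred on each of the 2575 merged regions. Of these windows, 52 (2.02%) held at least 2 regions of all 4 lists, as the locus window did. At least 3 regions of 3 or more lists were held by 27 (1.05%). The locus window was instead laid around known peaks, so these shares do not show how unusual the locus is. The distal domain entered it only by an edge, and dropped out when at least 50% of a peak had to lie inside. A listed peak averages over all cells of a sample, so fewer marked cells and less of the mark per cell cannot be told apart.

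**Figure D1:**
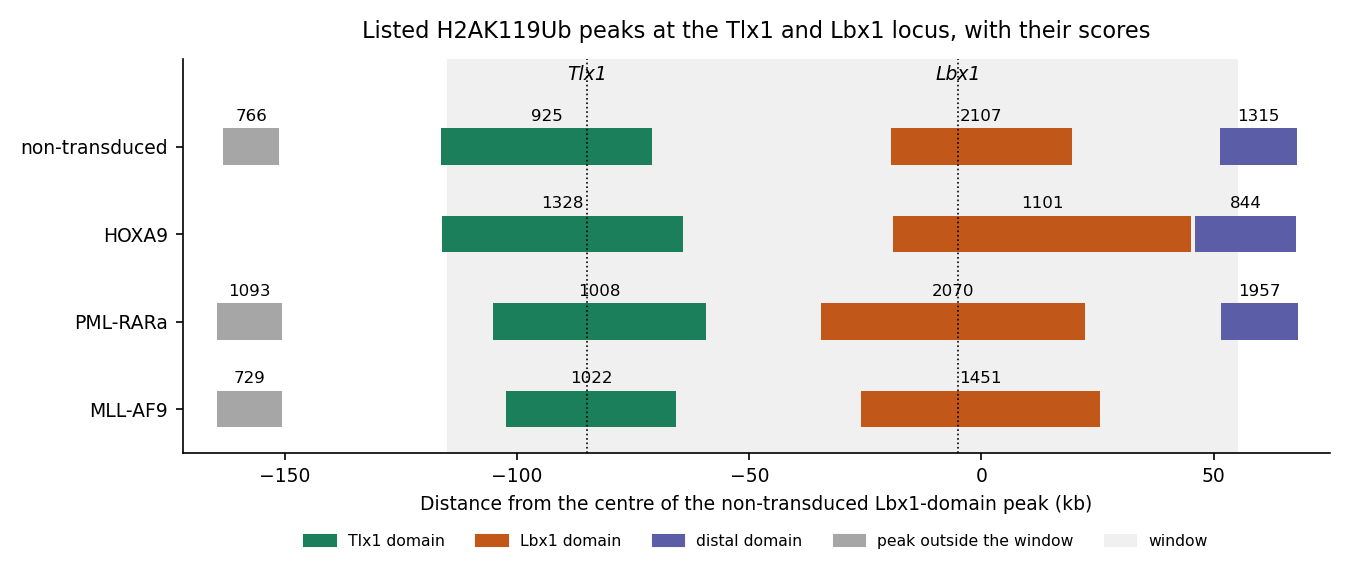
Map of the listed H2AK119Ub peaks of 4 libraries, 1 row each, as bars at their distance in kb from the centre of the non-transduced Lbx1-domain peak; the number over each bar is its deposited score, dotted lines mark the given gene positions and the pale band is the window. The Tlx1 and Lbx1 domains have a bar in every row, the distal domain in all rows but MLL-AF9, and the HOXA9 bar of the Lbx1 domain ends 1.01 kb before the distal one.

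In the Tlx1 domain, the non-transduced peak spanned 45198669 to 45243949 (45.3 kb). The HOXA9 peak spanned 45198820 to 45250657 (51.8 kb), the PML-RARa peak 45209750 to 45255576 (45.8 kb) and the MLL-AF9 peak 45212642 to 45249113 (36.5 kb). The left edges formed a close pair in the non-transduced and HOXA9 libraries, 151 bp apart, and lay 11.1 kb further right in PML-RARa and 14.0 kb further right in MLL-AF9 than in the non-transduced library. All 4 peaks covered 45212642 to 45243949, a shared core of 31.3 kb or 55.0% of the merged domain. The given position of Tlx1 lay inside this core, about 17 kb from its left end and 14 kb from its right end. It is given only as near 45.23 Mb, so these distances are approximate. In the non-transduced and HOXA9 libraries the peak began 1.33 and 1.18 kb before the window, and 43.95 and 50.66 kb of it lay inside.

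In the Lbx1 domain, the non-transduced peak spanned 45295482 to 45334443 (39.0 kb) and was the narrowest of the 4. The HOXA9 peak spanned 45295987 to 45360024 (64.0 kb), the PML-RARa peak 45280500 to 45337307 (56.8 kb) and the MLL-AF9 peak 45289039 to 45340588 (51.6 kb). Again the non-transduced and HOXA9 left edges were close, 505 bp apart, while the MLL-AF9 peak began 6.44 kb and the PML-RARa peak 15.0 kb further left than the non-transduced one. At the right end the HOXA9 peak stood apart. It reached 25.6 kb past the non-transduced edge, against 6.15 kb for MLL-AF9 and 2.86 kb for PML-RARa. The shared core, 45295987 to 45334443, was 38.5 kb long or 48.4% of the merged domain. The position of Lbx1, given only as near 45.31 Mb, lay about 14 kb from its left end.

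Over the 3 libraries with a distal peak, the distal domain had the smallest edge spreads, 5.42 kb at the left and 0.58 kb at the right. Without MLL-AF9 the spreads were 11.1 and 11.6 kb in the Tlx1 domain and 15.5 and 25.6 kb in the Lbx1 domain. The distal non-transduced peak spanned 45366385 to 45382834 (16.5 kb), the HOXA9 peak 45361035 to 45382621 (21.6 kb) and the PML-RARa peak 45366455 to 45383201 (16.7 kb). The non-transduced and PML-RARa peaks differed by 70 bp at the left and 367 bp at the right. Their Jaccard index, the bases in both peaks divided by the bases in either, was 0.974, and 93.4% of the 741 one-to-one pairs of these lists had a lower one. A one-to-one pair is a peak of 1 list and its sole overlapping partner in another list, where the partner likewise overlaps nothing else. The HOXA9 peak began 5.35 kb further left than the non-transduced one and ended within 580 bp of both others. These peaks entered the window by 3.62 kb (non-transduced), 8.97 kb (HOXA9) and 3.55 kb (PML-RARa).

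The MLL-AF9 list had no peak in the distal domain, but its numbering left room for 1. The lists name peaks by number along the chromosome, and MLL-AF9 peak 813 (Lbx1 domain) was followed by peak 815 at 45608239, so call 814 lay between 45340589 and 45608238 and was not in the list. Within these 268 kb each of the other lists had 1 peak wholly inside, which was its distal-domain peak. Partly inside were the HOXA9 Lbx1-domain peak, which ended at 45360024, and PML-RARa peak 1009, which began at 45602922. The place of call 814 cannot be read from the list. For comparison, 43 regions had peaks in the 3 other lists, none in MLL-AF9 and a listed MLL-AF9 neighbour on both sides. Of these, 31 (72.1%) had at least 1 MLL-AF9 number missing there, and 17, the distal domain among them, had exactly 1. Over the whole MLL-AF9 list, 402 of the numbers up to 1810 were missing. The share over all intervals between MLL-AF9 peaks was not computed.

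No other number was missing at the locus. The members were numbered 816 to 818 in the non-transduced list, 435 to 437 in HOXA9, 1006 to 1008 in PML-RARa and 812 to 813 in MLL-AF9, each without a gap. The listed left neighbours were 815, 434, 1005 and 811, so no numbered call was left out between them and the locus in any library. To the right, peaks 819, 438 and 1009 followed directly in the non-transduced, HOXA9 and PML-RARa lists. The stretch between the Tlx1-domain and Lbx1-domain peaks was thus free of numbered calls in each of the 4 libraries, and that between the Lbx1-domain and distal peaks in the 3 libraries with a distal peak. In MLL-AF9 the latter stretch lies within the interval of call 814. By comparison, over the whole genome 308 numbers were missing from the HOXA9 list, 352 from PML-RARa, 402 from MLL-AF9 and 434 from the non-transduced list.

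The nearest listed peaks outside the window are given here. Their distances were not compared with those around other peaks, so isolation of the locus was not tested. To the left, the non-transduced list had a peak at 45151715 to 45163743, the PML-RARa list at 45150394 to 45164331 and the MLL-AF9 list at 45150271 to 45164372, which ended 34.9 to 48.3 kb before the Tlx1 domain of the same library. HOXA9 had no peak there, and with no number missing between 434 and 435 it had no numbered call in the 346 kb before its Tlx1-domain peak. To the right, the nearest peaks began at 45608349 (non-transduced), 45602922 (PML-RARa) and 45608239 (MLL-AF9), and in HOXA9 only at 45798861. These are the closest peaks that the rule left out.

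The score of a peak is the authors' deposited value, on a scale that is not given in the sources used here, and it ranks peaks only within its own list. In the non-transduced list the Lbx1-domain peak scored 2107, the highest of all 1332, the distal peak 1315 (rank 102) and the Tlx1-domain peak 925 (rank 683). In PML-RARa the same order held, with 2070 (rank 10 of 1772) for the Lbx1 domain, 1957 (rank 19) for the distal domain and 1008 (rank 828) for the Tlx1 domain. In MLL-AF9 the Lbx1-domain peak scored 1451 (rank 72 of 1408) and the Tlx1-domain peak 1022 (rank 534). HOXA9 had another order: the Tlx1-domain peak came first with 1328 (rank 17 of 620), then the Lbx1-domain peak with 1101 (rank 102) and the distal peak with 844 (rank 327).

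Within each list, the Tlx1-domain score divided by the Lbx1-domain score was 1.21 in HOXA9. This ratio was 0.704 for MLL-AF9, 0.487 for PML-RARa and 0.439 for the non-transduced library. The non-transduced ratio is divided by the top score of that list, by which the window was chosen. Its low value is therefore partly by selection. HOXA9 was the only one of the 4 libraries in which the Tlx1 domain outscored the Lbx1 domain, and whether this exceeds the variation between libraries of 1 group was not tested. Many peaks shared a score: 28 non-transduced peaks scored 925, 26 PML-RARa peaks 1008, 25 MLL-AF9 peaks 1022 and 27 HOXA9 peaks 844, so these ranks are the best of a tie. At equal list length the Tlx1 domain was not marked in all 4 libraries: the best 620 peaks of each list left out its non-transduced and PML-RARa peaks. Ranks come from lists of different lengths and show no change between libraries.

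**Figure D2:**
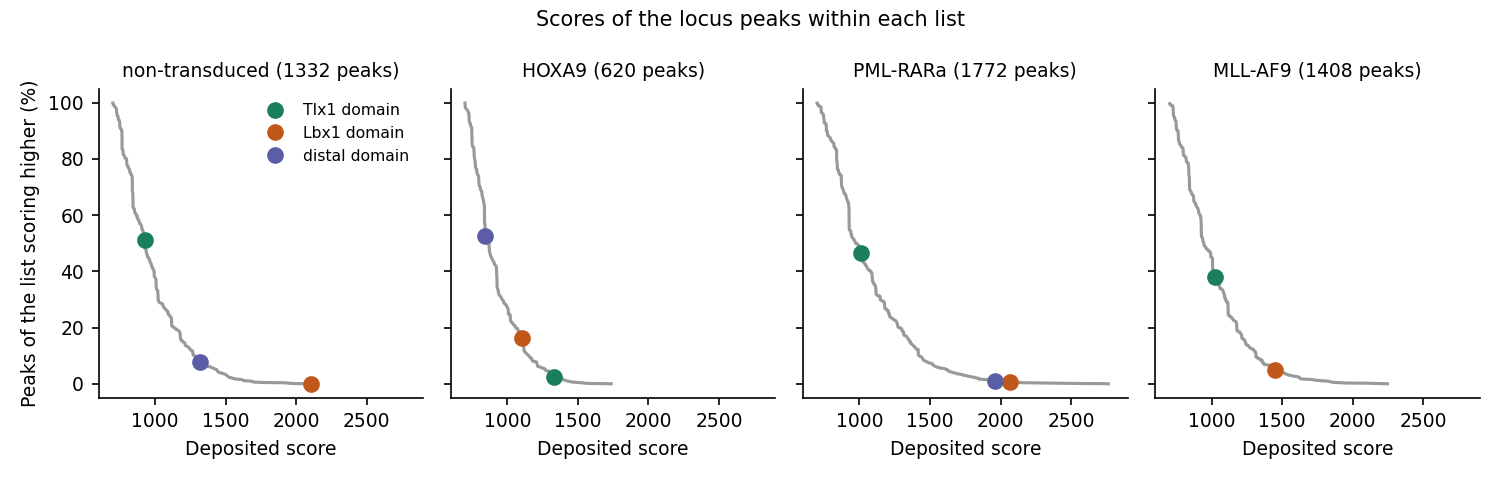
Each panel plots, for 1 list, the percentage of its peaks that score higher (vertical axis) against the deposited score (horizontal axis), with the whole list as a grey line and the locus peaks as coloured points. The Lbx1-domain point lies lowest, at the top of the ranking, in the non-transduced, PML-RARa and MLL-AF9 panels, and the Tlx1-domain point lies lowest in HOXA9.

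Ranks by width and by score differed. Of the 11 members, 6 were among the widest 10% of their list and 6 among the top-scoring 10%, and 3 were in both. In the wider 50% of their list were 10 members, and in the higher-scoring 50% 9. The non-transduced Tlx1-domain peak was wider (rank 134) than the Lbx1-domain peak (rank 192) with the lower score. In HOXA9 the Lbx1-domain peak was the wider, at rank 18 of 620 and 3.70 times the median width of the list, with the lower score. The Lbx1-domain peaks of PML-RARa (rank 66) and MLL-AF9 (rank 65) were 3.56 and 3.53 times their list medians, compared with 2.13 times in the non-transduced list. Tlx1-domain peaks were 2.47 to 2.99 times their list medians in the 4 libraries, and the distal peaks 0.898 to 1.25 times in 3.

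The Lbx1 domain was wider in each oncogene library than in the non-transduced one. The HOXA9 peak was 1.64 times as wide, the PML-RARa peak 1.46 times and the MLL-AF9 peak 1.32 times. These 3 ratios share the single non-transduced peak. Over all one-to-one pairs the median ratio was 0.921 for the 385 of HOXA9, and 7.79% of these had a higher ratio than the Lbx1 domain. For the 741 pairs of PML-RARa the median was 1.03 and 21.6% were higher, and for the 692 pairs of MLL-AF9 it was 0.946 and 15.9% were higher. Past a ratio of 1.5, which the HOXA9 peak of the Lbx1 domain was and the PML-RARa and MLL-AF9 peaks were not, lay 11.2% of the HOXA9 pairs, 20.4% of the PML-RARa pairs and 11.6% of the MLL-AF9 pairs. In the Tlx1 domain the ratio was above 1 for HOXA9 (1.14), near 1 for PML-RARa (1.01) and below 1 for MLL-AF9 (0.805). In the distal domain it was 1.31 for HOXA9 and 1.02 for PML-RARa.

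**Figure D3:**
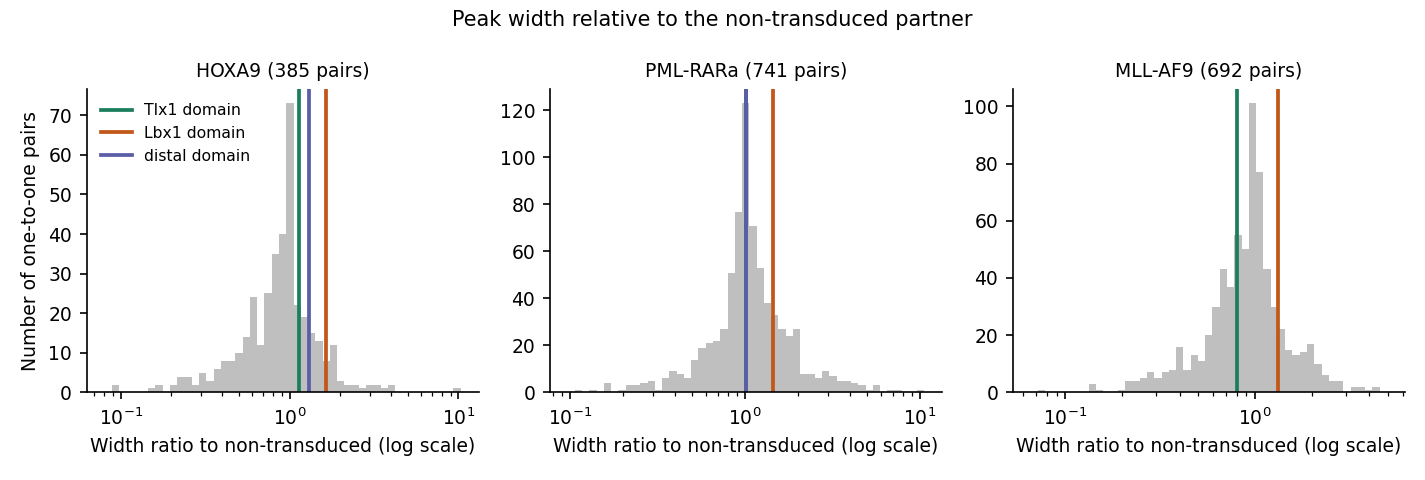
Histograms of the width of each oncogene-library peak divided by that of its non-transduced partner, over all one-to-one pairs (horizontal axis logarithmic, vertical axis number of pairs), with coloured lines for the locus domains. The Lbx1-domain line lies to the right of 1 in all 3 panels, at 1.64, 1.46 and 1.32.

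Edges of both gene domains varied more than in the median region with 1 peak in each list. The left edges of the 4 libraries spread over 14.0 kb in the Tlx1 domain and 15.5 kb in the Lbx1 domain, where the median of 249 such regions was 5.14 kb. The right edges spread over 11.6 kb and 25.6 kb, where the median was 4.89 kb. Of the 249 regions, 20.5% and 18.1% had at least as large a left spread, and 24.1% and 7.63% as large a right spread. Both domains were themselves among the 249 regions and were counted in these shares. The Lbx1 spread on the right rested on HOXA9: without that library it was 6.15 kb. The Lbx1 spread on the left rested on PML-RARa, without which it was 6.95 kb, and the Tlx1 spread on the right was 6.46 kb without the non-transduced and 6.71 kb without the PML-RARa library. Both domains were also wide, and 19.7% and 8.09% of the 309 regions of all 4 lists, which include them, were wider. They measured 56.9 and 79.5 kb, against a median of 29.0 kb over the 249 regions, and the spreads were not corrected for width. The shared core took 55.0% and 48.4% of the 2 domains. The median share was 51.3% over the 309 regions and 54.3% over the 249.

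**Figure D4:**
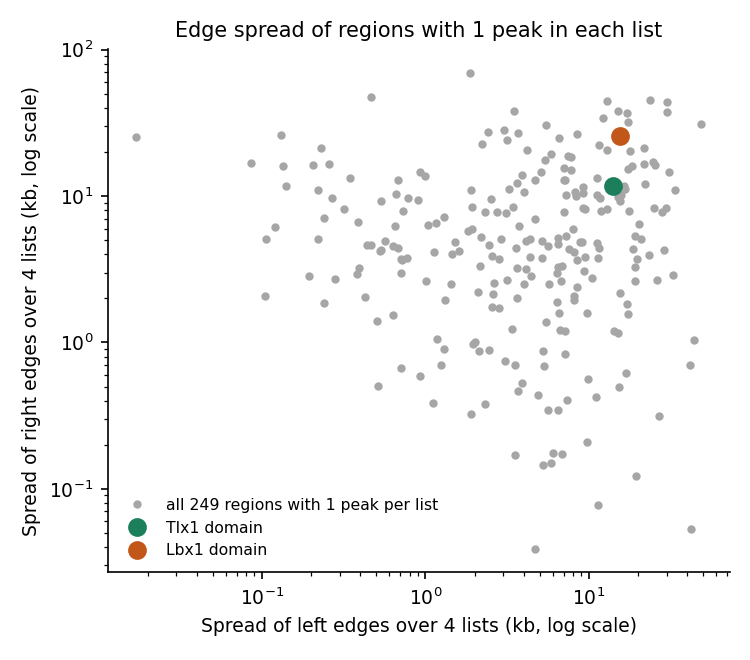
Spread of the left edges (horizontal) and right edges (vertical) over the 4 lists, in kb on logarithmic axes, for each of 249 regions with 1 peak in each list (grey), with the Tlx1 and Lbx1 domains in colour. Both coloured points lie toward the upper right, at 14.0 and 11.6 kb for Tlx1 and 15.5 and 25.6 kb for Lbx1.

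Of the window, HOXA9 peaks covered 124 kb (72.7%), PML-RARa peaks 106 kb (62.5%), MLL-AF9 peaks 88.0 kb (51.8%) and non-transduced peaks 86.5 kb (50.9%). The shortest list thus covered the most of the locus. In windows of the same length centred on each of the 2575 merged regions, the median covered length was 0 kb, 16.4 kb, 10.3 kb and 11.9 kb in the same order. At least as much as at the locus was covered in 3 of these windows by the HOXA9 list, in 25 by PML-RARa, in 46 by MLL-AF9 and in 94 by the non-transduced list. The windows were centred on regions of any list, so these counts also depend on how much each list holds and do not compare the lists. The window was laid around these peaks, so its high coverage is partly by construction.

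**Figure D5:**
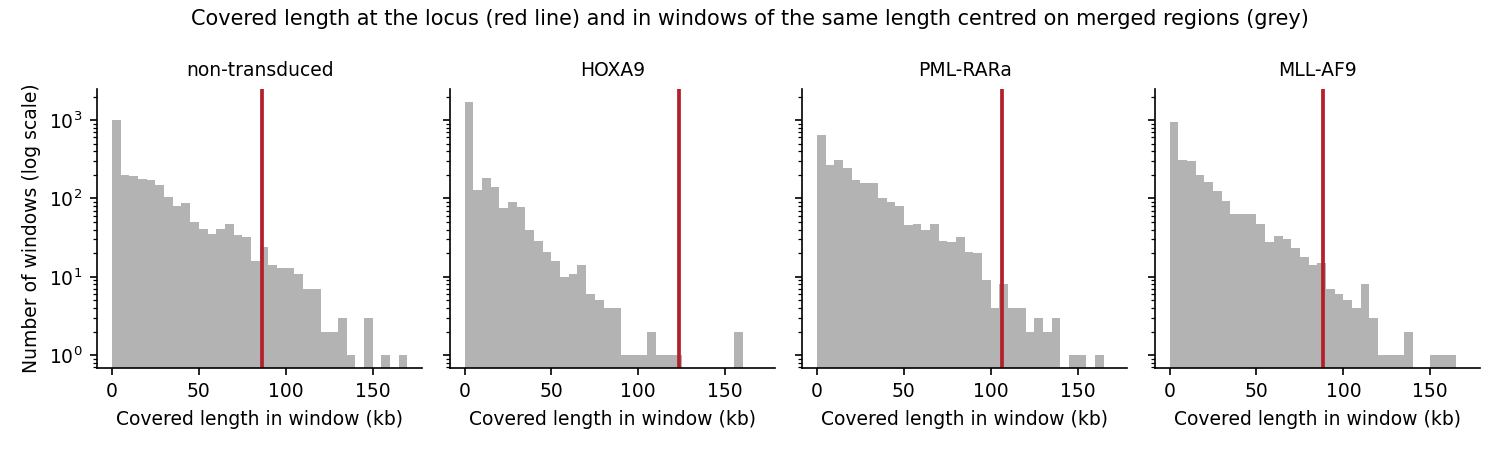
Histograms of the covered length in kb (horizontal axis) over 2575 windows of the same length centred on merged regions, with the number of windows on a logarithmic vertical axis, 1 panel per list; the red line is the locus. The line stands at 86.5, 124, 106 and 88.0 kb, and 3 of the 2575 windows reach it in HOXA9.

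By library, 69.8 kb of the window (41.0%) were covered in all 4 lists, 15.0 kb in 3, 21.1 kb in 2 and 38.2 kb in 1. The 25.9 kb covered in no list were 2 stretches, 24.9 kb between the Tlx1 and Lbx1 domains at 45255577 to 45280499 and 1.01 kb between the Lbx1 and distal domains at 45360025 to 45361034. Bases covered in 1 list alone belonged to HOXA9 (24.8 kb) and PML-RARa (13.5 kb), and the non-transduced and MLL-AF9 lists had none of their own. The gap from the Tlx1 to the Lbx1 domain was shortest in PML-RARa (24.9 kb), followed by MLL-AF9 (39.9 kb), HOXA9 (45.3 kb) and the non-transduced library (51.5 kb). From the Lbx1 to the distal domain it was shortest in HOXA9 (1.01 kb), followed by PML-RARa (29.1 kb) and the non-transduced library (31.9 kb).

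Covered bases agreed between the libraries more at the locus than over whole lists, in a window that was chosen for its peaks. The Jaccard index of the window ranged from 0.595 (HOXA9 and PML-RARa) to 0.774 (PML-RARa and MLL-AF9) over the 6 pairs, and over whole lists from 0.228 to 0.353. Compared peak by peak, the indices lay on both sides of the median pair. In the Lbx1 domain the index between the non-transduced and HOXA9 peaks was 0.596, and 33.0% of their pairs had a lower one. In the Tlx1 domain it was 0.868 for the same libraries, and 73.0% had a lower one.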

How the data were processed

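Per the submitters' processing notes, Bowtie and MACS2 were used on mm9. Not given in the sources used here are their roles, versions and settings, or whether an input was used. The authors deposited, for each immunoprecipitated library, a peak list with 5 columns and a score per peak of unstated scale, at least 700. The input sample was not analysed here. Positions follow the BED convention in the lists and count from 1 in the text.

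The members, lists and comparisons were chosen with earlier results of these data known. All peaks overlapping the window by at least 1 bp are named, with the nearest listed peaks on both sides; genes named are Tlx1, Lbx1 and their RefSeq neighbours. Both genes matched the gene table, and 1 (Tlx1) the promoter table. The planned protein comparison of paralogues was not made. Peaks were merged over lists where they overlapped or touched. Intervals of shares are exact binomial (Clopper-Pearson), treat regions as independent and cover counting error only. Interval code was tested on simulated data, and 50 of 50 simulated sets matched base-by-base counting. Alternatives were lists cut to their upper 75% or 50% of scores or to 620 peaks, other window edges, joining of near peaks, rank by width and leaving out each library. Python 3.11.15, numpy 2.4.6, scipy 1.17.1 and matplotlib 3.10.9 were used.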

Additional observations from a re-analysis of the deposited data

How the results depend on the processing

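A value was taken as moved when it changed by more than 1.5 times, or a share when it left its exact interval. Of 124 values under alternatives that keep all libraries, 106 did not move. Some of these could not move: cutting a list by score leaves the score rank of its best peak unchanged. A peak count going between 3 and 2 changed by exactly 1.5 times, so it was not taken as moved. The count of members differed from that reported by at most 1 peak in each list, between 2 and 4. The upper 50% by score drops the non-transduced Tlx1-domain peak, which left 42.6 kb covered in that library, 38.5 kb in all 4, and Jaccard indices with HOXA9, PML-RARa and MLL-AF9 of 0.324, 0.400 and 0.425. With the best 620 peaks of each list the coverage was 42.6 kb (non-transduced), 60.4 kb (PML-RARa) and 38.5 kb (all 4), and the Jaccard index 0.339 (non-transduced and HOXA9), 0.425 (non-transduced and MLL-AF9), 0.322 (HOXA9 and PML-RARa) and 0.482 (PML-RARa and MLL-AF9). By width in place of score, the best rank was 134 in the non-transduced list and 66 in PML-RARa. The share of regions in all 4 lists was 9.04% (upper 75%), 6.85% (upper 50%) and 8.69% (best 620). Joining peaks within 2000 bp, chosen after seeing the data, joined the HOXA9 Lbx1 and distal peaks and brought the Lbx1 right-edge spread to 42.6 kb; joining within 1000 bp moved no value.

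Leaving out 1 library at a time moved 8 of 24 values. The right-edge spread ranged from 6.46 to 11.6 kb (Tlx1) and 6.15 to 25.6 kb (Lbx1), the left-edge spread of Lbx1 from 6.95 to 15.5 kb, and the share of regions in all remaining lists from 15.6 to 23.2%, by construction higher with fewer lists. No paired analysis was possible because each group had 1 library. Depth is unknown, so absence from a list does not show absence of the mark.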
